A study of Macaca mulatta with 2 samples.

Results

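The regulators of G-protein signalling (RGS) described here are 10 genes, RGS2, RGS3, RGS4, RGS5, RGS7, RGS10, RGS12, RGS14, RGS16 and RGS19, of the 31395 genes or unnamed single probes of the array. They were taken by gene name, with every probe that carries the name, which gave 18 probes. The family was chosen by the measured log2 ratios between the 2 stages on these same arrays, where RGS5 was already known to be among the lowest, so all ratios of the 10 genes are given as descriptions, with errors and without tests. The RNA came from primary Sertoli cell cultures of rhesus macaque testis, infant or pubertal, and was measured on 2 two-colour Agilent arrays. Infant donors were younger than 3 months. Pubertal donors were 18 to 22 months old, and their puberty was induced before its natural time with pulses of gonadotropin-releasing hormone (GnRH), given at 0.15 µg/min for 2 min at intervals of 3 h over 4 to 5 weeks. Both groups of cultures had 24 h of testosterone (100 nM) and follicle-stimulating hormone (FSH, 5 ng/ml), so no culture without these hormones is compared. The pubertal RNA carried the red dye Cy5 on array 1 and the green dye Cy3 on array 2, opposite an infant culture of its own on each array.

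RGS proteins end the signals of heterotrimeric G proteins. A receptor loads a G alpha subunit with GTP, and the RGS domain speeds the hydrolysis of that GTP, which returns the subunit to its resting state. Most RGS proteins act on the Gi and Gq classes and not on Gs, the class through which the FSH receptor raises cAMP. The family is sorted by sequence into the small R4 proteins (here RGS2, RGS3, RGS4, RGS5 and RGS16), the R7 proteins (RGS7), the R12 proteins (RGS10, RGS12 and RGS14) and the RZ proteins (RGS19). RGS5 is widely used as a marker of pericytes, the contractile cells around small vessels.

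The probes are human 60-base designs placed on the human build hg17, so macaque RNA was read with human sequence, and mismatches to the macaque genome and exon or UTR annotation were not analysed here. The following are the kept probes of the 4 genes with the lowest pubertal over infant ratios, RGS5, RGS4, RGS3 and RGS10, printed from the array files as a stretch of 30 bases or as the whole probe. The capitals in the first mark AATAAA, the signal that precedes a poly(A) tail.
RGS5 A_23_P46045, bases 18 to 47: tgcttctggataAATAAAgcaccaaatatg
RGS5 A_23_P51518, bases 1 to 30: ctatgaaatcatcctgtgagttatttcctc
RGS4 A_23_P200737, bases 1 to 30: ctatgctctggaaaacctgaggccaaatat
RGS4 A_23_P433855, bases 1 to 60: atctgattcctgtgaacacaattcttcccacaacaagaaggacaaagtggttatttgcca
RGS3 A_23_P219197, bases 1 to 30: cccttgcctcatcagttttcctgatttaca
RGS10 A_23_P138717, bases 1 to 30: atttcctctcaggaccgtgccgggtttatc

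AATAAA stood on the printed strand of 1 of the 18 RGS probes, and 4.16% of all 41000 probes of the array hold it there. Its complement TTTATT was in 0 of the 18 and in 3.61% of all probes. The RGS5 probes lie on the minus strand at chr1:159843788-159843847 and chr1:159848717-159848776. The RGS4 probes lie on the plus strand at chr1:159776046-159776105 and chr1:159773885-159773944, with 67682 bases between the nearest probes of the 2 genes. RGS4 and RGS5 are also next to each other in the order of protein-coding genes in the macaque RefSeq table (T2T-MMU8v2.0), where all 10 gene names were found. The kept RGS3 probe lies at chr9:113439262-113439321 and the dim one at chr9:113371055-113378645 (both plus strand), and the RGS10 probe at chr10:121249513-121249572 (minus strand).

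The probes of different RGS genes shared little sequence. Over the 142 pairs of probes from different genes, the longest run in common was 10 bases. A pair from the related genes RGS12 and RGS14 is shown because its probes cover a similar stretch, and capitals mark the bases that are the same in the ungapped alignment with the most matches, 23 of the 34 bases that overlap.
RGS12 A_23_P69513: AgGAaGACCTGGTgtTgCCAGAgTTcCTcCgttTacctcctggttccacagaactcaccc
RGS14 A_23_P124927: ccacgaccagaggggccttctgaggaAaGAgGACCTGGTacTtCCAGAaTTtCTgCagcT

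Pubertal RNA gave a signal well above background at 74.8% of spots on array 1 and 62.6% on array 2, and infant RNA at 60.9% and 71.5%. Probes well above background in 1 stage on both arrays were kept, and the brightest kept probe stood for its gene. This left 19619 genes or unnamed single probes, 14221 of them with a gene symbol, and both kinds are called genes below. Among them were 9 of the 10 RGS genes. Of the 18 RGS probes 16 were kept, none of them saturated. Sertoli cell markers were measured for 15 of 16 genes, with SOX9, WT1 and AMH well above background in all 4 cultures and FSHR in both infant and 1 of 2 pubertal cultures. Across all genes limma called 0 at an adjusted p under 0.05 (792 at an unadjusted p under 0.05, 438 higher and 354 lower in pubertal cultures). The pubertal over infant ratios of the 2 arrays had a Pearson r of -0.07 over these genes, a description only, since genes share their libraries.

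RGS5 and RGS4, neighbours in the genome, had the lowest mean pubertal over infant ratios of the RGS genes. RGS5, which shortens Gi and Gq signals in the cells around vessels, had a log2 level (normalized intensity) of 6.93 in the pubertal and 8.82 in the infant culture of array 1. On array 2 it stood at 7.75 in the pubertal and 9.95 in the infant culture. Both infant cultures were thus above both pubertal ones, in the order infant on array 2, infant on array 1, pubertal on array 2 and pubertal on array 1. Each culture was measured once, so which neighbours in this order differ beyond their error is not known. Set against infant, the pubertal log2 ratios were -1.89 for array 1 and -2.20 for array 2. They averaged -2.05 ± 0.25 (moderated standard error, SE, from limma's fit over all genes, n = 2 array pairs), which is 4.13-fold lower. In these bulk cultures a smaller share of RGS5-bearing cells and less RGS5 RNA per cell cannot be told apart, and the same holds for every gene below.

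RGS4, a close relative of RGS5 with the same G alpha targets, had a log2 level of 6.85 in the pubertal and 9.83 in the infant culture of array 1. On array 2 the values were 6.64 and 7.86. The pubertal cultures were again both below the infant ones, but the infant culture of array 1 stood well above that of array 2. The ratios were -2.98 and -1.22. They averaged -2.10 ± 0.47 (moderated SE, n = 2 array pairs), which is 4.29-fold lower, and lay 1.76 apart, against 0.31 for RGS5. The pubertal signal on array 2 was only 30.45 scanner units over its local background, and the offset of 50 that the processing adds makes such ratios smaller. With the scanner software's own signals the RGS4 ratios were -3.72 and -2.65 and those of RGS5 -2.76 and -2.64.

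**Figure D1:**
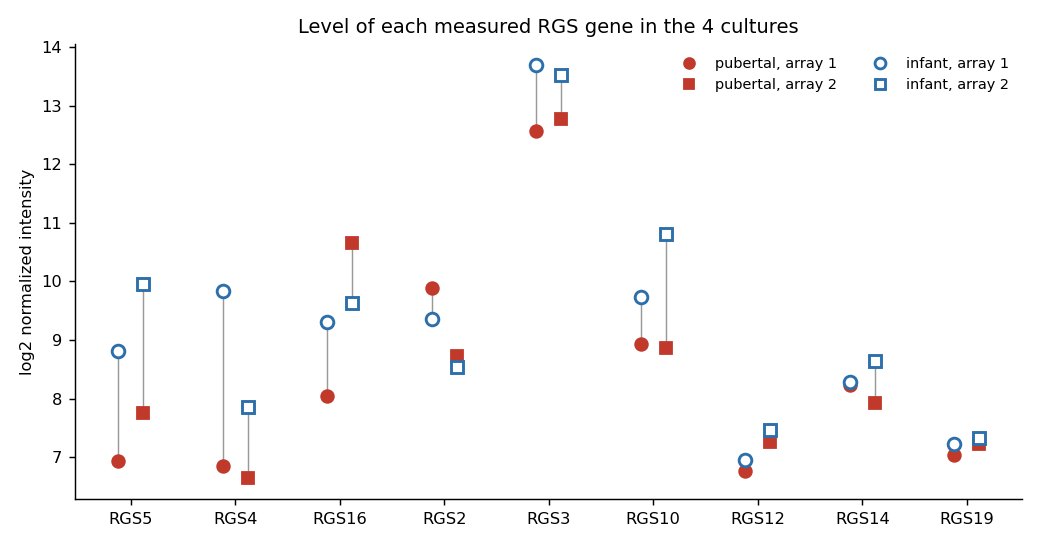
Log2 normalized intensity (vertical axis) of the 9 measured RGS genes (horizontal axis), 1 point per culture: filled red pubertal, open blue infant, circles array 1, squares array 2, with a line joining the 2 cultures of an array. RGS5 ran from 6.93 to 9.95 with both infant cultures on top, and RGS16 was lowest and highest in the 2 pubertal cultures, at 8.04 and 10.65.

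RGS3, a longer R4 protein that acts on Gi and Gq, had a lower level in both pubertal than in both infant cultures. Its log2 level was 12.56 pubertal and 13.70 infant on array 1, and 12.77 pubertal and 13.52 infant on array 2. The 2 infant cultures lay close together and above the 2 pubertal ones. The ratios of -1.14 and -0.74 averaged -0.94 ± 0.25 (moderated SE, n = 2 array pairs), which is 1.92-fold lower. With median centring in place of loess the array 1 ratio was 0.04 and that of array 2 -1.51. That setting left the medians of all genes at 0.63 and -0.42, and RGS3 was below these on both arrays.

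RGS16 and RGS2, R4 genes known to be switched on quickly by receptor signals, did not follow RGS4 and RGS5. RGS16, which acts on Gi and Gq, had a log2 level of 8.04 pubertal and 9.30 infant on array 1, and 10.65 pubertal and 9.63 infant on array 2. The pubertal cultures held both the lowest and the highest value. Its ratios were -1.26 and 1.02 (mean -0.12 ± 0.57, moderated SE, n = 2 array pairs). The Cy3-labelled culture was the brighter on both arrays, so dye and culture cannot be told apart here. RGS2, which prefers Gq, had a log2 level of 9.88 pubertal and 9.35 infant on array 1, and 8.73 pubertal and 8.54 infant on array 2. It was above 0 on both arrays, at 0.53 and 0.19 (mean 0.36 ± 0.25, moderated SE, n = 2 array pairs), with levels that overlapped between the stages. With median centring its array 2 ratio was -0.25, where the median of all genes was -0.42.

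RGS10 had the lowest mean pubertal over infant ratio of the R12 group. This small protein, little more than an RGS domain and known from brain and immune cells, had a log2 level of 8.93 pubertal and 9.74 infant on array 1. On array 2 it had 8.86 pubertal and 10.81 infant. The pubertal cultures were alike and below both infant ones, which differed from each other. The ratios of -0.80 and -1.94 averaged -1.37 ± 0.35 (moderated SE, n = 2 array pairs), which is 2.59-fold lower. With median centring they were -0.06 and -2.50, so the array 1 value depends on the scaling. Both lay below the all-gene medians of that setting, 0.63 and -0.42.

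RGS12 and RGS14 are scaffold proteins that carry a second G alpha binding motif beside the RGS domain. RGS14 had a log2 level of 8.24 pubertal and 8.29 infant on array 1, and 7.92 pubertal and 8.64 infant on array 2, with ratios of -0.05 and -0.73. They averaged -0.39 ± 0.28 (moderated SE, n = 2 array pairs). With median centring the array 1 ratio of RGS14 was 0.48, where the median of all genes was 0.63. RGS12 had 6.76 pubertal and 6.95 infant on array 1, and 7.25 pubertal and 7.47 infant on array 2, with ratios of -0.18 and -0.22 (mean -0.20 ± 0.24, moderated SE, n = 2 array pairs). Its levels differed more between arrays than between stages. RGS19, the RZ protein also known as GAIP, had 7.04 pubertal and 7.23 infant on array 1, and 7.22 pubertal and 7.32 infant on array 2. Its mean ratio was -0.14 ± 0.24 (moderated SE, n = 2 array pairs), smaller than its error.

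RGS7, the R7 protein that works in a complex with the beta subunit GNB5, was too dim to be kept. Its single probe was well above background in 1 of 2 pubertal and 1 of 2 infant cultures, and its ratios of 0.17 and -0.33 are given only to account for it. The coordinates of that probe, chr1:237292304-237295509, span 3206 bases, more than its 60 bases, so on hg17 it is not 1 unbroken block. GNB5 itself was measured, at -0.26 and -0.55 (mean -0.40 ± 0.25, moderated SE, n = 2 array pairs), chosen here as the partner of RGS7.

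**Figure D2:**
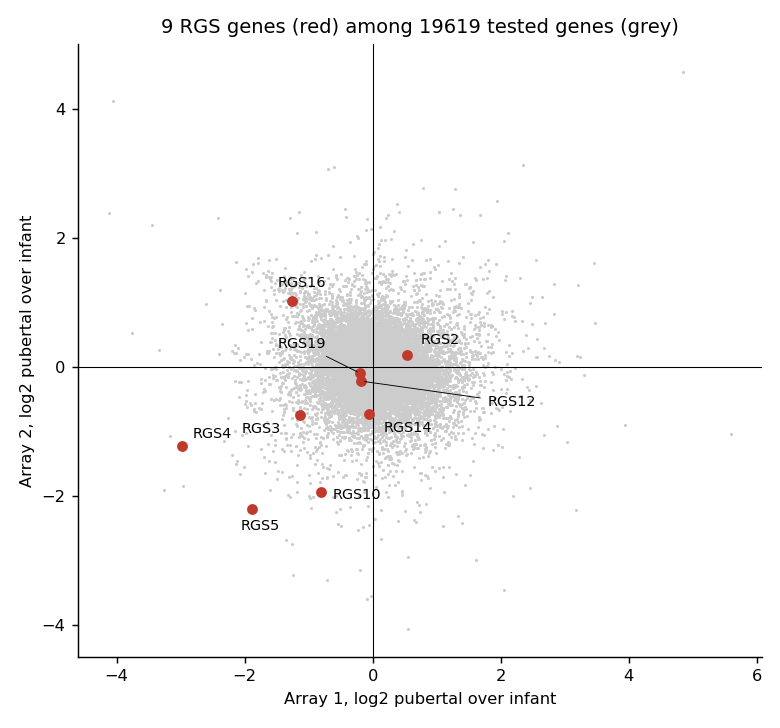
Log2 ratio of pubertal over infant on array 1 (horizontal axis) and array 2 (vertical axis). The 19619 genes or unnamed single probes are in grey and the 9 measured RGS genes in red. RGS5, RGS4, RGS3, RGS10, RGS12, RGS14 and RGS19 lie below 0 on both axes, RGS2 above 0 on both and RGS16 between. With median centring RGS3, RGS14 and RGS2 change sign on 1 array. Against the all-gene medians of that setting, 0.63 and -0.42, RGS3 and RGS14 stay below on both arrays and RGS2 above. RGS19, at -0.05 and -0.28, is then above the array 2 median.

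Of the 9 measured RGS genes, 7 were below 0 on both arrays, 1 was above 0 on both and 1 had opposite signs. Over all 19619 genes 21.9% were below 0 on both arrays and 23.5% above, so 45.4% had the same sign. Median centring, which left the tested genes at medians of 0.63 and -0.42, gave 5 RGS genes below 0 on both, and 6 below those medians on both. RGS5 and RGS4 were at least 2-fold lower on both arrays, as were 0.352% of all genes, and 0 RGS genes were at least 2-fold higher on both, against 0.342% of all genes. In 6 of the 9 genes both pubertal cultures had a lower level than both infant cultures, and this was so for 14.1% of all genes. The reverse order was seen in 0 RGS genes and in 15.8% of all genes. These counts rest on the contrast by which the family was chosen and are given as description. The median of the mean ratios was -0.39 over the 9 RGS genes and 0.01 over all genes tested.

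Further probes of a gene gave a view of its transcript at another place, in the same RNA. The second RGS5 probe, 4989 bases away end to end on hg17, had log2 levels of 7.11 pubertal and 8.76 infant on array 1 and of 7.67 and 9.67 on array 2. Its mean ratio of -1.83 lay near the -2.05 of the first. The second RGS4 probe had -1.51 and -0.46 and was well above background in both infant cultures and 1 of 2 pubertal ones. Both RGS4 probes were thus below 0 on both arrays, by less at the dimmer one. The dimmer probe was kept through its infant signal alone, the stage in which it was higher, so its direction is no separate support. Its pubertal signals were 26.69 and 17.85 scanner units over local background. RGS16 also had like signs at its 2 probes, with -0.35 and 0.67 at the second. The 2 RGS14 probes had means of -0.39 and -0.38. Those of RGS12, spread over 88643 bases, lay between -0.20 and -0.03 in mean, and the 3 dimmer ones were below 0 on array 1 and above 0 on array 2. The second RGS3 probe, for another transcript (NM_017790), was not kept. Of the 16 kept probes 10 were below 0 on both arrays, 1 was above 0 on both and 5 had opposite signs. The dimmer RGS4 probe is among the 10.

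**Figure D3:**
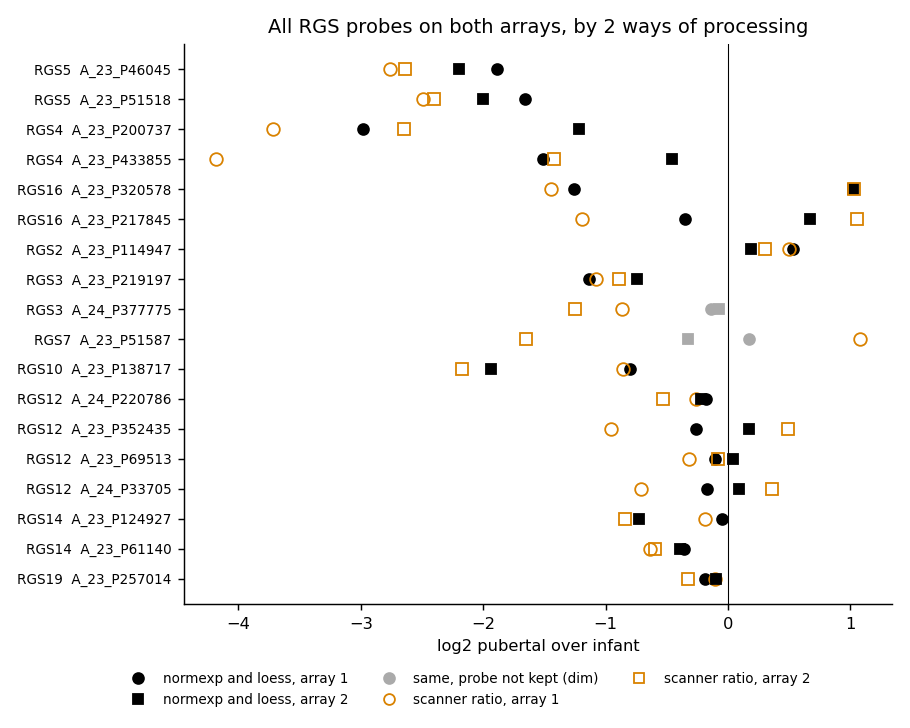
Log2 ratio of pubertal over infant (horizontal axis) for each of the 18 RGS probes (rows); circles are array 1 and squares array 2, black after normexp and loess, grey for the 2 dim probes that were not kept, and open orange for the scanner software's ratio. For RGS5 and RGS4 every point is left of 0 at both probes, and the scanner's ratios lie further out, at -2.76 and -2.64 for the brighter RGS5 probe.

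The authors' deposited table lists 8 RGS probes of 5 of the genes. In the authors' deposited table RGS5 has log2 ratios of -2.77 and -2.64 at the brighter probe and -2.49 and -2.41 at the other. RGS4 has -3.72 and -2.65 at its brighter probe in the authors' deposited table, with -4.21 on array 1 and an empty cell on array 2 for the second. For RGS10 the authors' deposited table gives -0.88 and -2.16, for RGS3 -1.08 and -0.91, and for RGS16 -1.46 and 1.04.

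Other genes that carry an RGS domain were measured for 19 of the 28 listed, and limma called 0 of them higher and 0 lower (0 also at an unadjusted p under 0.05). The arrays were alike in sign for 10 of them, 3 higher and 7 lower (0 and 3 with median centring), and opposite for 9. With median centring 2 of them were above and 7 below the medians of all genes on both arrays. Their median mean ratio was -0.13. GRK5, a kinase that switches off activated receptors, was at -0.58 and -0.60 (mean -0.59 ± 0.24, moderated SE, n = 2 array pairs), and at 0.41 and -1.21 with median centring. The remaining measured genes with an RGS name, outside the rule for named genes, were RGS9 at -0.45 and -0.37, RGS11 at 0.03 and -0.22, RGS17 at 0.65 and -0.31 and RGS22 at 0.13 and -0.75. RGS1, RGS6, RGS8, RGS13, RGS18 and RGS20 were too dim to be kept.

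The G proteins on which RGS proteins act were read against the 45.4% of all genes with the same sign on both arrays. Of 12 measured G alpha subunits 10 had opposite signs, 1 was higher and 1 lower, and the median mean ratio was 0.07. Of 13 G beta and gamma subunits 1 was higher and 5 lower on both (0 and 2 with median centring), with a median of -0.15. Against the all-gene medians under median centring 0 of them were above and 5 below on both. Among 5 measured anchors and other G alpha regulators 1 was higher and 1 lower on both. In these 3 lists 0 genes had a ratio of 0.5 or more in size the same way on both arrays, and limma called 0 (0 at an unadjusted p under 0.05).

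Gq and Gi effectors included 12 measured genes, with 3 higher on each array, 4 lower on each and 5 opposite (2 higher and 1 lower with median centring), and limma called 0 (2 at an unadjusted p under 0.05). Against the all-gene medians under median centring 2 effectors were above and 4 below on both arrays. PRKCB1, a protein kinase C that acts downstream of Gq, was at 2.02 and 0.82 (mean 1.42 ± 0.36, moderated SE, n = 2 array pairs), with a mean of 1.06 at a further probe. PRKCA, another protein kinase C, was at -0.68 and -0.57, with a mean of -0.12 at a further probe, and at 0.16 and -1.15 with median centring. Of 18 measured Gq and Gi coupled receptors 12 had opposite signs, 3 were higher and 3 lower, and limma called 0 (2 at an unadjusted p under 0.05). BDKRB2, the bradykinin B2 receptor, was at 3.46 and 1.62, and the B1 receptor gene BDKRB1 at 1.66 and 0.57. A further BDKRB1 probe was at 1.53 and 0.57. Both bradykinin receptors, which signal through Gq, thus stood above 0 on both arrays. With median centring BDKRB1 was at 2.59 and -0.01, where the medians of all genes were 0.63 and -0.42.

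**Figure D4:**
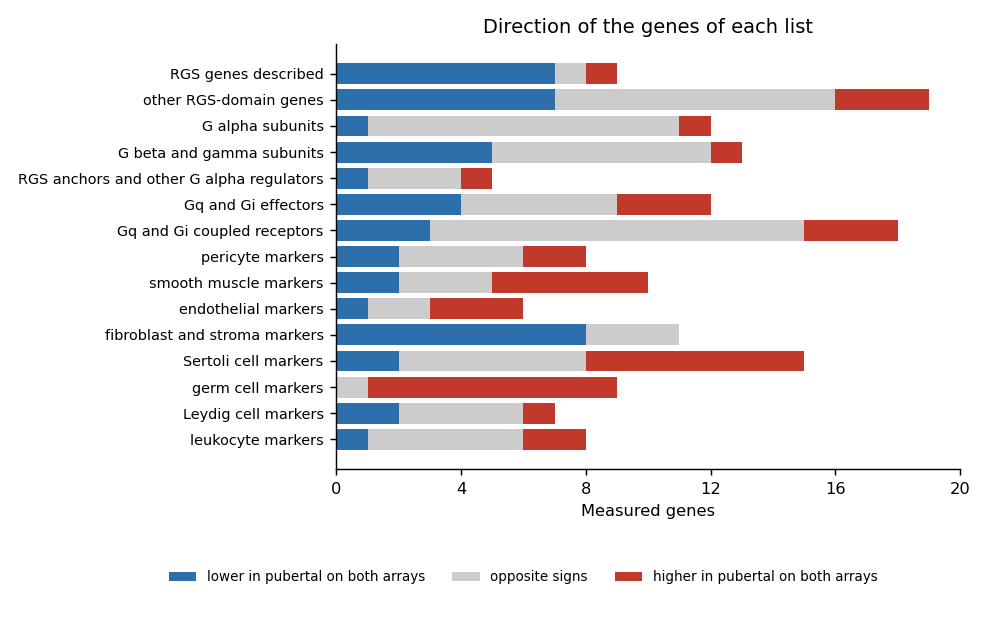
Number of measured genes (horizontal axis) in each gene list (rows) that were lower in pubertal cultures on both arrays (blue), had opposite signs (grey) or were higher on both (red), after loess. Among RGS genes 7 of 9 were lower on both, among G alpha subunits 1 of 12 and among fibroblast and stroma markers 8 of 11. With median centring 5, 1 and 7 were below 0 on both, and 6, 1 and 8 were below the medians of all genes on both.

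The genes whose pair of ratios lay nearest to that of RGS5, by distance over the 2 arrays, were STC2, GPC3, PTGDS, DLK1 and NNAT. STC2, a secreted glycoprotein hormone, was nearest, at a distance of 0.41 with ratios of -1.61 and -1.90. The other distances ran from 0.57 for GPC3 to 0.63 for NNAT. Which genes were nearest depended on the scaling: with median centring GPC3 and STC2 stayed among the nearest 5, at 0.79 and 0.54, while PTGDS, DLK1 and NNAT lay at 0.93, 1.23 and 1.20. With the scanner software's signals 0 of the 5 stayed among the nearest 5. All 5 were well above background in the 4 cultures. DLK1 also stood in the list of Leydig cell markers.

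Pericytes are the cells in which RGS5 is best known. Of 13 pericyte markers 8 were measured, 2 higher and 2 lower on both arrays, where all genes had 23.5% and 21.9%, and ABCC9, KCNJ8 and HIGD1B were not well above background in both cultures of either stage. The list's mean log2 level was 8.51 pubertal and 8.73 infant on array 1, and 8.76 pubertal and 8.87 infant on array 2. PDGFRB, the receptor by which pericytes and fibroblasts respond to platelet-derived growth factor, was at -1.08 and -1.01 (0.02 and -1.73 with median centring). MCAM was at 0.52 and -0.09, with 0.35 and 0.16 at a further probe, and CD248 was at -0.54 and 0.24. Outside the rule, CSPG4, the NG2 proteoglycan of pericytes, was at -0.71 and -0.69 (-0.49 and -1.04 with median centring). The 2 markers higher on both arrays were FOXF2 at 0.57 and 0.36 and COX4I2 at 0.10 and 0.11. Each was well above background in both pubertal cultures and in 1 infant culture. With median centring 2 pericyte markers were higher and 1 lower on both arrays. Against the all-gene medians of that setting 0 were above and 2 below on both.

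Of the 11 fibroblast and stroma markers, all measured, 8 stood below 0 on each array, against 21.9% of all genes. The remaining 3, THY1, DPT and LUM, had opposite signs, and limma called 0 (6 at an unadjusted p under 0.05). Their mean log2 level was 10.44 pubertal and 11.81 infant on array 1, and 10.79 pubertal and 11.20 infant on array 2. COL1A2, a collagen chain, was at -0.69 and -0.74 (0.52 and -1.56 with median centring), with a mean of -0.38 at a further probe. DCN was at -1.97 and -0.43 and COL1A1 at -0.84 and -0.03. With median centring 7 of the 11 were lower on both arrays, and 8 were below the medians of all genes on both. Their part in the RGS ratios was not tested.

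Smooth muscle markers, all 10 measured, had 5 genes higher and 2 lower on each array (2 and 2 with median centring), with mean log2 levels of 10.47 pubertal and 10.35 infant on array 1 and of 11.99 and 11.96 on array 2. Against the all-gene medians under median centring 5 were above and 2 below on both arrays. TPM2 was at 0.95 and 0.56 (2.22 and -0.36 with median centring), CNN1 at 0.84 and -1.24 and TAGLN at 0.25 and -0.10. Further probes had 0.76 and 0.56 for TPM2 and 0.12 and 0.33 for TAGLN. The 2 lower smooth muscle genes, outside the rule, were DES at -1.07 and -1.26 and MYH11 at -1.25 and -0.63, beside the 5 higher. Of 6 measured endothelial markers 3 were higher and 1 lower on both, and CDH5, TEK, KDR and EMCN were too dim to be kept. VWF averaged 0.85 ± 0.26 (moderated SE, n = 2 array pairs), with SOX18 at 0.54 and 0.16 and EGFL7 at -0.10 and -0.37. Germ cell markers had 8 of 9 measured genes higher on each array and 0 lower, where all genes had 23.5% and 21.9%. With median centring 6 germ cell markers were higher and 0 lower. SYCP3, MAGEA4 and KIT were well above background in both pubertal cultures but in only 1 infant culture. They were thus kept through the stage in which they were higher. The list's mean log2 levels were 7.82 pubertal and 7.01 infant on array 1 and 7.58 and 7.03 on array 2. Against the all-gene medians under median centring 5 germ cell markers were above and 1 below on both arrays. The 3 brightest were STK31 at 2.06 and 1.35, NANOS3 at 0.12 and 0.03 and DAZL at 1.18 and 1.65. Leydig cell markers had 1 of 7 higher and 2 lower, and LHCGR was too dim to be kept. Their mean log2 levels, the highest of the marker lists, were 13.13 pubertal and 13.23 infant on array 1 and 12.52 and 12.57 on array 2. The 2 lower genes, outside the rule, were CYP17A1 at -2.12 and -1.45 and DLK1 at -1.32 and -1.99. HSD3B1 was at 0.00 and 1.76, HSD3B2 at -0.43 and 2.46 and CYP11A1 at 0.68 and 0.27, each saturated in 1 of the 4 cultures. A further HSD3B1 probe was at 0.68 and 0.93. Leukocyte markers had 2 of 8 higher and 1 lower, with CD79A at 0.43 and -0.18, CD163 at 2.44 and -0.36 and CD14 at 0.17 and -0.03. Sertoli cell markers had 7 of 15 measured genes higher and 2 lower on each array (4 and 1 with median centring), with mean log2 levels of 11.66 pubertal and 10.98 infant on array 1 and of 11.21 and 10.67 on array 2. Against the all-gene medians under median centring 6 Sertoli cell markers were above and 1 below on both arrays. INHBB was at -0.08 and 0.95, TF at 0.46 and -0.21 and INHA at 1.00 and -0.25, each saturated in 1 of the 4 cultures. A further TF probe was at 0.33 and 0.19. Outside the rule, CST9L, a cystatin of the Sertoli cell, was at 4.85 and 4.58, chosen after its values were seen. The part of these lists in the RGS ratios was not tested.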

How the data were processed

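Each array set a pubertal against an infant culture, biological replicates per the labels, which do not say whether a culture pooled animals. The submitters' processing notes name Feature Extraction version 9.5.1.1, and the array design is 014850. The deposited scanner files hold mean spot intensity and local background intensity per channel, not normalized. They also hold processed intensities and their log10 ratio of Cy5 over Cy3, per the file headers. Flags, another kind of value in the deposited files, mark background, saturation and outliers. The authors' deposited log2 ratios match the scanner's in direction (slopes of 1.006 and 1.003), and how they were normalized is not given in the sources used here.

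Intensities were corrected by normexp (offset 50), normalized by loess within arrays and, for levels of single cultures, by Aquantile between arrays, in limma 3.58.1 (R 4.3.3). Levels of different arrays also differ in dye. Outlier spots were left out, spots of 1 probe averaged, and 15221 dim probes left out. Each log2 ratio was given the direction pubertal over infant and fitted with lmFit and eBayes (two-sided, Benjamini-Hochberg, 1 residual and 3.805 prior degrees of freedom). The fit was tested on simulated data. Both arrays carry the same slide and scan time, per the file headers, so neither could be tested as a batch.

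The RGS genes and all gene lists were chosen with earlier results of these data known. Named beside the RGS genes were, per pathway list, up to 3 genes with the largest mean among those at 0.5 or more the same way on both arrays, per marker list the 3 brightest, and the 5 genes nearest to RGS5. SOX9, WT1, AMH and FSHR were named beside that rule to check the cell type.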

Additional observations from a re-analysis of the deposited data

How the results depend on the processing

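RGS5 and RGS4 were below 0 on both arrays under the main processing and all 9 alternatives to it that keep both arrays. These 9 are not separate checks. Changing the filter on dim probes, leaving out saturated spots and the intensity trend left the ratios of both genes as they were. The authors' deposited ratios nearly repeat those of the scanner software. RGS5 had a mean of -2.52 at an offset of 0, -2.70 with the scanner software's signals and -2.71 in the authors' deposited table, and single arrays gave -2.20 to -1.89. RGS4 had means from -3.19 to -1.54. Averaging a gene's probes left 1 RGS gene at least 2-fold lower on both arrays. The count of 8 RGS genes with the same sign on both arrays was 7 when a gene's probes were averaged (6 lower, 1 higher). It was 5 with median centring (0 higher) and 4 of the 5 listed genes in the authors' deposited table (4 lower, 0 higher). limma's count of genes was 1 at an offset of 0, 1 with median centring and 1 with an intensity trend. The 136 genes at least 2-fold apart were 294 at an offset of 0, 496 with the scanner software's signals and 74 with median centring (51 higher and 23 lower, against 67 and 69). The limma count was not run on the deposited table, whose probes were selected. Counts over both arrays cannot be had without either replicate. Each value already is a ratio within 1 array, so the fit used the pairing of cultures by array, with 1 group of 2 arrays. The scaling of the gene lists and of the distances to RGS5 was tried after seeing the data. The number of arrays limits precision, and the dimmest values, such as pubertal RGS4, move most with the background correction.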
